A study of Mus musculus with 8 samples.

Results

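Granzymes are the serine proteases that cytotoxic T cells and natural killer cells carry in secretory granules, and the granzyme family was taken here as the 10 genes of a 54532-gene count table named Gzma, Gzmb, Gzmc, Gzmd, Gzme, Gzmf, Gzmg, Gzmk, Gzmm and Gzmn. The genes were chosen by name, and the family was selected on the same contrast described here, so its levels and fold changes are given as a description with no test. RNA was sequenced from whole tumors of 4T1-FLuc, a mouse triple-negative breast cancer line that carries firefly luciferase, grown under the skin of female BALB/cJ mice injected at 6 weeks of age. The control group held 4 tumors from mice given saline, which the labels also call PBS. The treated group held 4 tumors from mice given mAb-DXd/IMQ at 16 mg/kg through the tail vein every 4 days for 5 courses. This agent is a humanized antibody to the surface protein CD276 that carries both DXd, a topoisomerase inhibitor, and IMQ, an agonist of the Toll-like receptors TLR7 and TLR8. Both groups shared the tumor line, the host strain, sex and age. The host keeps its T, B and natural killer cells, and every tumor comes from 1 cell line. The labels call the tumors xenografts although line and host are both mouse. Library totals ran from 34591912 counts in mAb-DXd/IMQ 4 to 69582375 in saline 4, so a count of 0 allows up to 3 counts, or between 0.0431 and 0.0867 CPM by tumor (CPM are counts scaled to the library size). These limits cover counting error alone.

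When a cytotoxic cell binds its target, perforin opens the target's membrane and granzymes enter and cut proteins inside, which sets off cell death. Granzyme B cleaves after aspartate, granzymes A and K cleave after basic residues, and granzyme M cleaves after methionine or leucine. Rodents carry an expanded cluster of further granzyme genes beside Gzmb, known from strongly activated T and natural killer cells, and granzyme B also occurs in mast cells.

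The members sit in 3 places. On chromosome 14, 7 of them lie within 144.635 kb and all are read from the minus strand. In order of position they are Gzme (ENSMUSG00000022156, chr14:56117626-56120625), Gzmd (ENSMUSG00000059256, chr14:56129556-56132608), Gzmg (ENSMUSG00000040284, chr14:56156582-56159579) and Gzmn (ENSMUSG00000015443, chr14:56165797-56174599). They go on with Gzmf (ENSMUSG00000015441, chr14:56205263-56211417), Gzmc (ENSMUSG00000079186, chr14:56231441-56234656) and Gzmb (ENSMUSG00000015437, chr14:56258838-56262260). Chromosome 13 holds Gzma (ENSMUSG00000023132, chr13:113093825-113100981) and Gzmk (ENSMUSG00000042385, chr13:113171608-113225908), both on the minus strand. Chromosome 10 holds Gzmm (ENSMUSG00000054206, chr10:79689020-79695261) on the plus strand. All 10 starts and ends were identical to those of GENCODE vM21 on mouse build GRCm38, while the processing notes deposited with the data name mm39. Gzmc, Gzmd, Gzme, Gzmf and Gzmg are called the 5 cluster granzymes from here on. They are also the members whose groups did not overlap, so sums and shares over them describe genes set apart by that outcome. Gzmn lies among them and is not included.

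All 10 members have a promoter in RefSeq on GRCm38.p6, taken as 250 bases before to 50 bases after the annotated start. The 7 of the chromosome 14 locus are printed because members of that locus had unlike fold changes, and the sequences show which of them have similar starts. Each is written 5′ to 3′ on the minus strand, in the order of the locus. They lie at chr14:56120576-56120875 (Gzme), chr14:56132544-56132843 (Gzmd), chr14:56159530-56159829 (Gzmg) and chr14:56174550-56174849 (Gzmn). The others lie at chr14:56211358-56211657 (Gzmf), chr14:56234608-56234907 (Gzmc) and chr14:56262285-56262584 (Gzmb). Capitals mark the letters TGTGGT or their reverse complement ACCACA, known from Runx factors, and TGACGTCA, the cyclic AMP response element (CRE).
Gzme: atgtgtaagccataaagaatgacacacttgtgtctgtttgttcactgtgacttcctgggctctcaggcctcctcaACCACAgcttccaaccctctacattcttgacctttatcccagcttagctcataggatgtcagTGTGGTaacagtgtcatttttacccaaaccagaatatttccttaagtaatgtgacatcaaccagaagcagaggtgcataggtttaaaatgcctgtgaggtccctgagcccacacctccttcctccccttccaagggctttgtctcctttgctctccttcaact
Gzmd: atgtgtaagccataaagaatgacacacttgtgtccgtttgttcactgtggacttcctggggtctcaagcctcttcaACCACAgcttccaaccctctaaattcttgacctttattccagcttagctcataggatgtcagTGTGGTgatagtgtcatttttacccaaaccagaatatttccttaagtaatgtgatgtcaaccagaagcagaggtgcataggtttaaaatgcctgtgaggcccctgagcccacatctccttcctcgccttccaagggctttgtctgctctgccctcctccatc
Gzmg: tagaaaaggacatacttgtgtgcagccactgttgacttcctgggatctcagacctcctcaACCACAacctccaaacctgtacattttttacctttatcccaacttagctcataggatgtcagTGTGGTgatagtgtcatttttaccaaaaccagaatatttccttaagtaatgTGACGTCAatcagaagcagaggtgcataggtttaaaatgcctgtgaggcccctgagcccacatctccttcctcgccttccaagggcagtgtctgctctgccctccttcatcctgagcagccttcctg
Gzmn: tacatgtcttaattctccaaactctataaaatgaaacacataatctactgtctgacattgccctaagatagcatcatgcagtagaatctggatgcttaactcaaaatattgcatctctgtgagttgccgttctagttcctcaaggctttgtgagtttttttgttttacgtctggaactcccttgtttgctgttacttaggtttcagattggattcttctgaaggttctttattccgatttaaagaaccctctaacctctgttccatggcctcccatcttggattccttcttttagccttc
Gzmf: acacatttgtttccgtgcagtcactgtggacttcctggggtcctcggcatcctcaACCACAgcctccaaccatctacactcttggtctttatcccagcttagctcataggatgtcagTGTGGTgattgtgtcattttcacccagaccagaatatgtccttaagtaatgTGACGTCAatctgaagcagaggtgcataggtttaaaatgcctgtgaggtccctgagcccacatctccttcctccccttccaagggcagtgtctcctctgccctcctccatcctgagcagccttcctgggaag
Gzmc: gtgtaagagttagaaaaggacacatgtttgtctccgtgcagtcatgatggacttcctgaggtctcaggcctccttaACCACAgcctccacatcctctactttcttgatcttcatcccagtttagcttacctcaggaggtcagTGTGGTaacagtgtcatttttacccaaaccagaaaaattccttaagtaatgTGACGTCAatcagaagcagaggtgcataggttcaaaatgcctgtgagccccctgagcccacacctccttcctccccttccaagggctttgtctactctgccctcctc
Gzmb: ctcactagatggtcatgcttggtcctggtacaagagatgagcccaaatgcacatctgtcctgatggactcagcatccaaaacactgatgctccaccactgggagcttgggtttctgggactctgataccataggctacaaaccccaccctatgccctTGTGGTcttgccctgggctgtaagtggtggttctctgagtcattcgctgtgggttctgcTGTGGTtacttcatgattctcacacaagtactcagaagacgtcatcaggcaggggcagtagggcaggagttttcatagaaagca
The RefSeq start lies 74 bases from the 5′ end that the count table gives for Gzmb, 15 for Gzmd, 10 for Gzmf, 1 for Gzmc and 44943 for Gzmk, and at that end for the other members. Motif results for Gzmk thus concern a window far from the end of its counted gene model.

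Between the 5 cluster granzymes these windows were alike, with 73.5% (Gzmc and Gzmf) to 93.4% (Gzmd and Gzme) identical bases and a median of 80.4% over 10 pairs. Pairs of 1 cluster granzyme with 1 other member had a median of 46.2%. Gzmn was 46.2% to 48.3% identical to the cluster granzymes in its promoter, against 63.1% to 77.6% in its transcript. Each of the 5 cluster granzymes carried a pair of Runx matches. In Gzmd these began at −174 and −112, in Gzme at −175 and −113, in Gzmf at −195 and −133 and in Gzmg at −190 and −128, each pair 62 bases apart. In Gzmc they began at −174 and −108, 66 bases apart, and in Gzmb at −93 and −34, 59 bases apart. The Runx letters were found in 8 of the 10 members, with none in the windows of Gzmk and Gzmn, and in 16.8% of all 32851 mouse promoters of the same length.

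The CRE letters began at −57 in Gzmc, −82 in Gzmf and −77 in Gzmg, in no other member, and in 1.79% of all promoters. Ets letters (GGAAGT) were present in all 5 cluster granzymes and Gzmk and in 23.8% of promoters. The AP-1 letters (TGANTCA) were in Gzmb alone among members and in 7.81% of promoters. STAT letters (TTCNNNGAA) were in Gzmb and Gzmm and in 8.30% of promoters. T-box letters (TCACACC) were in Gzmk alone and in 3.98% of promoters, and TATAAA was in Gzmn alone, at −226, and in 13.6% of promoters. All 7 motifs were searched on both strands and no 2 matches overlapped within a member. A match describes letters in a window and does not show that a factor binds, and a missing match says only that these letters are not in this window.

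**Figure D1:**
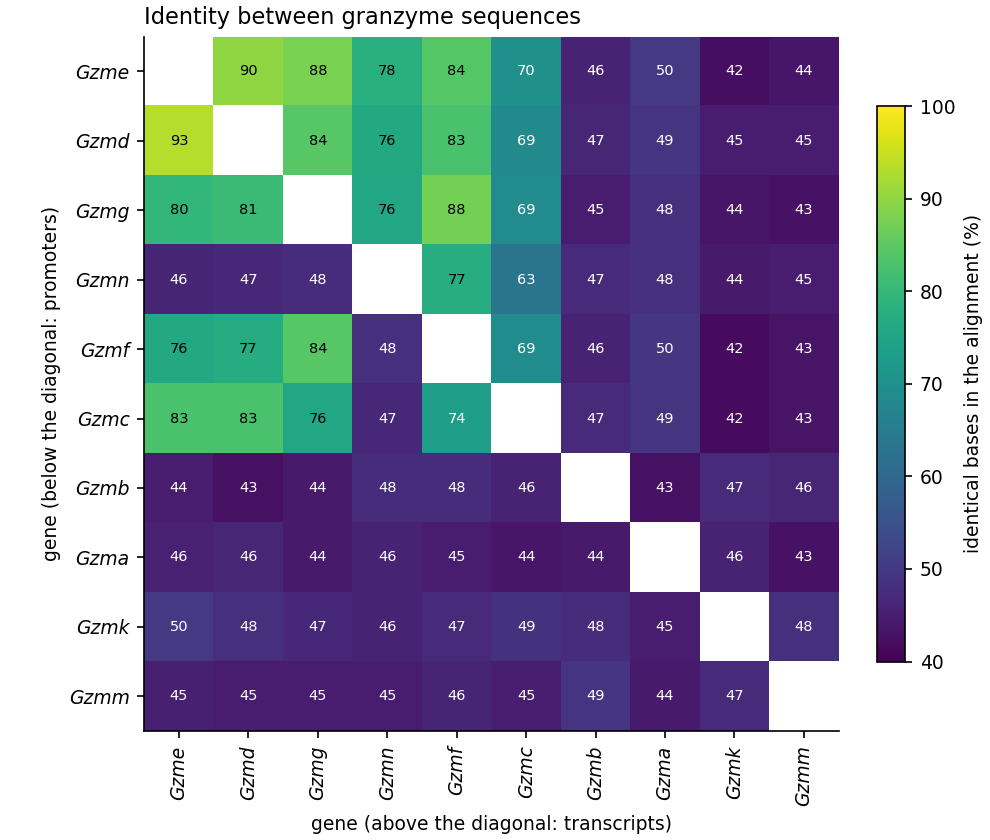
Identity between granzyme sequences, as the percentage of identical bases in each pairwise alignment, for transcripts on one side of the diagonal and promoters on the other. The 5 cluster granzymes form a block with promoter identities of 73.5% to 93.4%, while Gzmn is 63.1% to 77.6% identical to them by transcript and 46.2% to 48.3% by promoter.

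The comparison of mAb-DXd/IMQ with saline tumors asks which tumor RNAs differ under an agent that joins a cell poison to an immune stimulant. In the tumors given mAb-DXd/IMQ, the 5 cluster granzymes stood far above their saline levels, while Gzmb, in the same locus, and Gzma, Gzmk and Gzmm, elsewhere, overlapped between groups. Summed, the 5 cluster granzymes came to 50.3 ± 9.85 CPM in saline tumors and 452 ± 114 CPM in treated tumors (mean ± SD, n = 4 each). Levels are CPM after TMM normalization, a scaling that allows for differences in library make-up. Of the 10 members, 9 passed the filter on low counts. Groups did not overlap, treated above saline, for 5 of these 9. Across all 18511 genes tested, 101 (0.546%) were called higher and 96 (0.519%) lower, meaning a false discovery rate under 0.05 and a log2 fold change beyond 0.58. Groups did not overlap for 1106 genes (5.97%) with treated tumors higher and for 1314 (7.10%) with treated tumors lower. Because the family was selected on this contrast, nothing is read from the members' count against these shares.

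Gzmc encodes a granzyme of the cluster for which fewer substrates are known than for granzymes A and B. In saline tumors 1 to 4 it stood at 22.5, 7.72, 14.1 and 19.5 CPM, and in mAb-DXd/IMQ tumors 1 to 4 at 112, 90.4, 102 and 104 CPM. The treated tumors lay close together, all above the highest saline tumor, and saline 2 was the lowest. The means were 15.9 ± 6.5 and 102 ± 8.96 CPM (SD, n = 4), with a log2 fold change of 2.67 (SE 0.27).

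Gzmd and Gzme share the highest identity of any pair, in promoters (93.4%) and in transcripts (90.04%). Gzmd stood at 17.1, 11.4, 11.7 and 10.2 CPM in saline tumors and at 134, 100.1, 84.4 and 180.2 CPM in treated tumors. Gzme stood at 11.0, 8.26, 14.2 and 9.11 CPM in saline tumors and at 62.9, 42.2, 50.6 and 64.9 CPM in treated tumors. For both genes every treated tumor was above every saline tumor, and mAb-DXd/IMQ 4 was the highest. The log2 fold change was 3.31 (SE 0.25) for Gzmd, from 12.6 ± 3.07 to 125 ± 42.5 CPM. For Gzme it was 2.37 (SE 0.20), from 10.7 ± 2.63 to 55.2 ± 10.7 CPM.

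Gzmf and Gzmg had the lowest saline levels of the cluster granzymes, in CPM per kb, and the largest log2 fold changes of the family. Gzmf stood at 5.84, 7.38, 3.64 and 3.70 CPM in saline tumors and at 85.7, 65.8, 38.2 and 108 CPM in treated tumors. Gzmg stood at 8.39, 8.91, 1.68 and 4.89 CPM in saline tumors and at 107, 76.0, 68.1 and 133 CPM in treated tumors. Both were highest in saline 2 and lowest in saline 3 among controls, and highest in mAb-DXd/IMQ 4 and lowest in mAb-DXd/IMQ 3 among treated tumors, with no overlap. The log2 fold change was 3.86 (SE 0.34) for Gzmf, from 5.14 ± 1.81 to 74.4 ± 29.6 CPM. For Gzmg it was 4.01 (SE 0.45), from 5.97 ± 3.37 to 95.8 ± 29.6 CPM. In RNA from whole tumors, a different number of granzyme-bearing cells and a different amount of RNA in each such cell cannot be told apart.

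Gzmn, which lies among the cluster granzymes, was close to the detection limit. Its raw counts were 2, 0, 4 and 0 in saline tumors and 10, 15, 19 and 2 in treated tumors. The groups overlapped at mAb-DXd/IMQ 4, and the sums were 6 counts in controls and 46 in treated tumors. Gzmn did not pass the filter on low counts and was not tested. With no filter its fitted log2 fold change was 3.05, which rests on these few counts. Gm4022, an antisense gene chosen after its values were seen, overlaps Gzmn and Gzmf and held 0, 0, 4 and 2 counts in saline tumors and 1, 0, 0 and 14 in treated tumors, nearly all of the latter in mAb-DXd/IMQ 4, and the labels do not state whether the libraries keep the strand.

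Gzmb closes the locus and encodes granzyme B, which cleaves after aspartate. It stood at 60.0, 14.9, 38.5 and 22.6 CPM in saline tumors and at 40.02, 44.4, 44.2 and 66.3 CPM in treated tumors. The groups overlapped: saline 1 was above all treated tumors but mAb-DXd/IMQ 4, and the saline tumors spread more widely. The means were 34.0 ± 19.9 and 48.7 ± 11.9 CPM, with a log2 fold change of 0.52 (SE 0.35) that ran from 0.27 to 0.94 when 1 tumor at a time was left out. In the treated group mAb-DXd/IMQ 4 stood apart from the others.

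**Figure D2:**
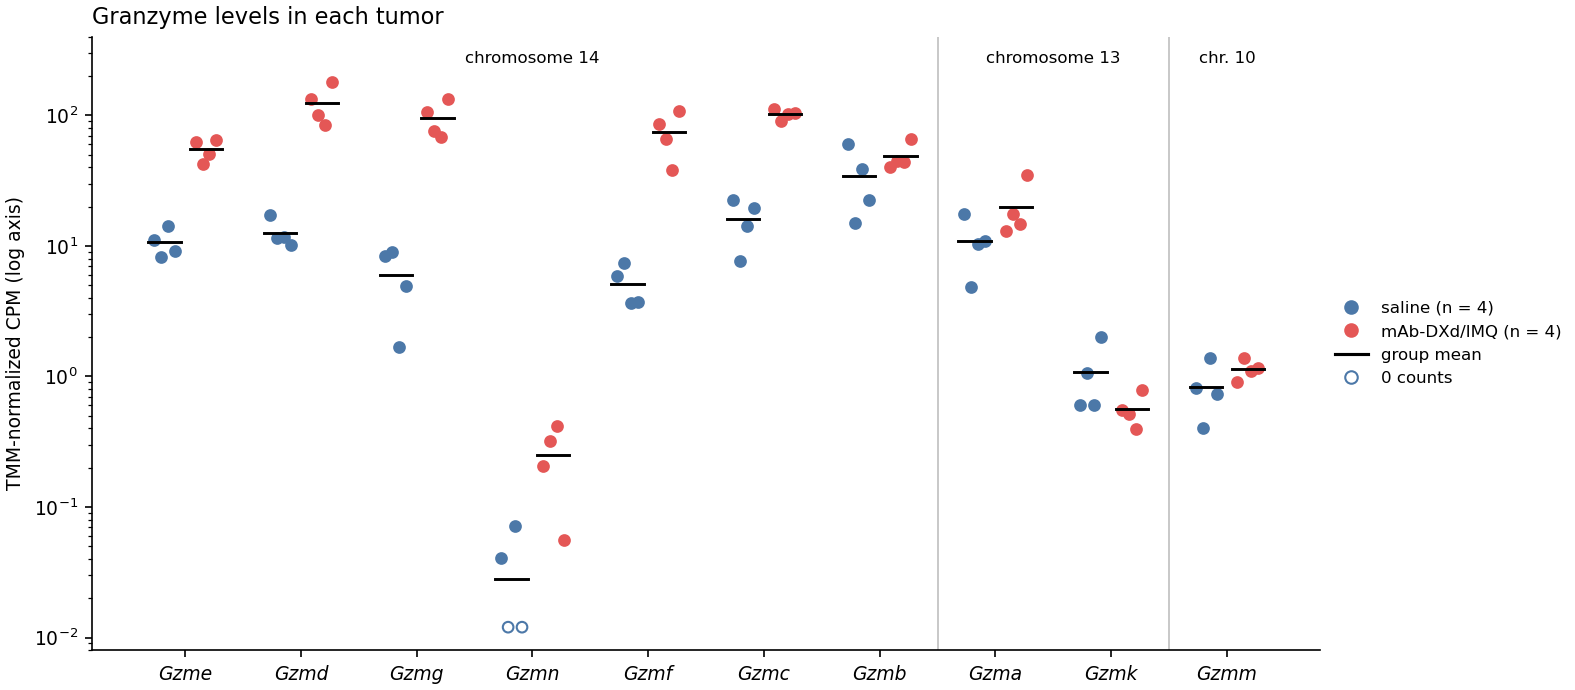
Level of each granzyme in each of the 8 tumors as TMM-normalized CPM on a log axis, with a point per tumor, a bar at the group mean and open points for a count of 0, ordered by position on chromosomes 14, 13 and 10. For Gzmc, Gzmd, Gzme, Gzmf and Gzmg all treated tumors (38.2 CPM and above) lie over all saline tumors (22.5 CPM and below), and the other members overlap between groups.

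On chromosome 13, Gzma encodes the tryptase-like granzyme A. It stood at 17.6, 4.87, 10.3 and 10.9 CPM in saline tumors and at 12.9, 17.7, 14.6 and 34.9 CPM in treated tumors. Saline 2 was the lowest and mAb-DXd/IMQ 4 the highest, as for Gzmb, and the groups overlapped. The means were 10.9 ± 5.22 and 20.02 ± 10.1 CPM, with a log2 fold change of 0.87 (SE 0.39). That value ran from 0.47 to 1.20 when 1 tumor at a time was left out.

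Its neighbor Gzmk, a second tryptase-like granzyme, was the 1 tested member with a negative fold change. It stood at 0.608, 1.06, 0.609 and 2.02 CPM in saline tumors and at 0.557, 0.514, 0.393 and 0.787 CPM in treated tumors. Saline 4 was the highest, and mAb-DXd/IMQ 4 lay inside the saline range. The log2 fold change was −0.94 (SE 0.46), and it ran from −1.14 to −0.43 when 1 tumor at a time was left out. The gene model of Gzmk in the count table runs across Esm1, an endothelial gene on the opposite strand. Esm1 was named after its values were seen and stood at 4.55 ± 2.67 CPM in saline and 10.7 ± 3.95 CPM in treated tumors. Its groups overlapped, and edgeR did not call it (log2 fold change 1.23, edgeR adjusted p 0.127).

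On chromosome 10, Gzmm encodes the granzyme that cleaves after methionine. It stood at 0.811, 0.406, 1.38 and 0.731 CPM in saline tumors and at 0.908, 1.39, 1.09 and 1.15 CPM in treated tumors. The groups overlapped through saline 3. The log2 fold change was 0.44 (SE 0.39), from 0.22 without saline 2 to 0.80 without saline 3.

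Scaled to gene length, the order of the members differed between groups. In saline tumors Gzmb had the highest mean level at 23.7 ± 13.9 CPM per kb, followed by Gzmc at 17.8 ± 7.27, Gzmd at 13.1 ± 3.18, Gzme at 11.6 ± 2.87 and Gzma at 10.9 ± 5.19 CPM per kb. Below them came Gzmg at 6.57 ± 3.71, Gzmf at 5.59 ± 1.97, Gzmk at 0.773 ± 0.479, Gzmm at 0.565 ± 0.275 and Gzmn at 0.0283 ± 0.0351 CPM per kb. From Gzmb down to Gzmf, each step between neighbors in this order was smaller than the larger SD of the pair. The steps from Gzmf to Gzmk and from Gzmm to Gzmn were larger than it.

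In treated tumors Gzmd led at 129 ± 44.1 CPM per kb, followed by Gzmc at 114 ± 10.02, Gzmg at 105 ± 32.6, Gzmf at 80.9 ± 32.3 and Gzme at 60.2 ± 11.7 CPM per kb. Gzmb followed at 33.9 ± 8.28, Gzma at 19.9 ± 10.02, Gzmm at 0.772 ± 0.136, Gzmk at 0.405 ± 0.119 and Gzmn at 0.252 ± 0.156 CPM per kb. The steps from Gzme to Gzmb, Gzmb to Gzma, Gzma to Gzmm and Gzmm to Gzmk were larger than the larger SD, and those among the cluster granzymes were not.

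As a share of the summed CPM per kb of all 10 members, the 5 cluster granzymes took 53.9%, 74.4%, 56.1% and 64.5% in saline tumors and 92.8%, 89.0%, 88.8% and 88.6% in treated tumors. Saline 2 had the highest share among controls and stayed below every treated tumor. Gzmb took 31.9%, 16.3%, 30.6% and 19.6% in saline tumors and 4.76%, 6.78%, 7.34% and 6.42% in treated tumors. Its share was lower in each treated tumor than in any saline tumor, although its level overlapped. The share of Gzma was 11.5 ± 2.74% in saline and 3.58 ± 1.09% in treated tumors, although its mean level was higher in treated tumors, at 10.9 and 20.02 CPM, with overlap. A share depends on the level of every other member. The summed level of all members was 144, 64.9, 96.2 and 83.6 CPM in saline tumors and 556, 439, 403 and 693 CPM in treated tumors, with no overlap.

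**Figure D3:**
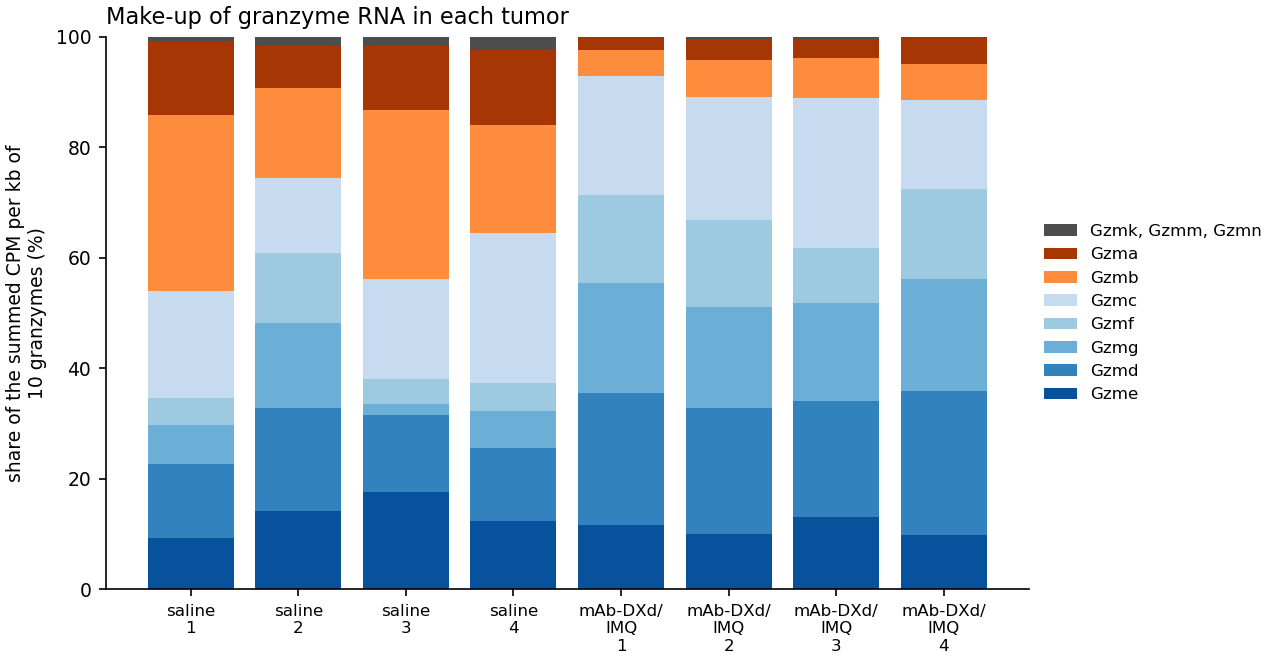
Make-up of granzyme RNA in each tumor, as each member's share in percent of the summed CPM per kb of the 10 granzymes, with a stacked bar per tumor. The 5 cluster granzymes fill 53.9% to 74.4% of the bar in saline tumors and 88.6% to 92.8% in treated tumors.

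Transcripts of the cluster are alike enough to ask whether reads could have been shared between them. Between the 5 cluster granzymes, transcripts were 68.6% (Gzmc and Gzmd) to 90.04% (Gzmd and Gzme) identical. Of the 100-base stretches of each member's transcript, only 2 of 865 in Gzmd and 2 of 810 in Gzmg also occurred in the transcript of another gene, each in the other. The other 8 members had none. How the deposited counts treated reads with several placements is not stated.

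Across tumors within a group, the members did not all move together. How closely 2 genes ran together was measured as the SD of their log2 ratio about its group means over the 8 tumors, where 0 means a constant ratio. This SD also grows with the spread of each gene, so it is given beside the value that the same spreads would give with no correlation. Among the 10 pairs of cluster granzymes the median was 0.61, beside 0.73 with no correlation, and 7 pairs were below and 3 above their own such value. Pairs with 1 cluster granzyme had a median of 0.75 beside 0.80, with 13 of 20 below, and pairs with none had 0.77 beside 0.89, with 4 of 6 below, so the cluster granzymes were not set apart by this measure. Within the cluster it was 0.36 for Gzmd and Gzme (0.52 with no correlation), 0.38 for Gzmd and Gzmf (0.71) and 1.00 for Gzme and Gzmg (0.90). The smallest value of any pair was 0.35 (0.96 with no correlation), between Gzma and Gzmb, which sit on different chromosomes and are both highest in saline 1 and mAb-DXd/IMQ 4 and lowest in saline 2 and mAb-DXd/IMQ 1.

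Gzmc shared its highest and its lowest control tumor with Gzma and Gzmb. All 3 were highest in saline 1 and lowest in saline 2, Gzmd was highest in saline 1 and lowest in saline 4, whereas Gzmf and Gzmg were highest in saline 2. In treated tumors mAb-DXd/IMQ 4 was the highest for 4 of the 5 cluster granzymes, and Gzmc was highest in mAb-DXd/IMQ 1. That tumor, mAb-DXd/IMQ 4, had the lowest library total. The log2 ratio of Gzmd to Gzmg, picked after its values were seen as the pair with the smallest SD among treated tumors, had an SD of 0.061 there and 1.03 among saline tumors, and the other cluster pairs had 0.19 to 0.62 among treated tumors. On the log2 scale Gzmc itself had an SD of 0.68 in saline and 0.13 in treated tumors, Gzmb 0.88 and 0.32, and Gzmf 0.50 and 0.64. These values rest on 4 tumors a group and were not tested.

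The same measure was used to search 14639 other genes with a mean of at least 1 CPM. Nearest to the mean of the 5 cluster granzymes within groups were Ankrd37 (0.10), Ppp1r3b (0.13), Pmp22 (0.13), C1rl (0.13), Mmp12 (0.14) and Adhfe1 (0.15), against a median of 0.42 over all genes searched and 0.35 for a gene with no variation. Nearest to Gzmb were Cxcl11 (0.14), Ndst3 (0.17), Gbp4 (0.17), Gm16685 (0.18), Gm12185 (0.20) and 4930512H18Rik (0.21), against a median of 0.71 and 0.66 for a gene with no variation. Cxcl11 encodes a chemokine and Gbp4 a guanylate-binding protein, both known as interferon-induced genes, and Mmp12 encodes macrophage elastase. No gene is on both lists. The search covered many genes with 8 tumors, and no meaning was attached to single names.

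Around the chromosome 14 locus, within 500 kb to each side, lie 61 other genes. Of the 38 tested, edgeR called 2 higher and none lower, beside 101 (0.546%) and 96 (0.519%) of all 18511 tested genes. Both of the 2 passed the filter on low counts only through the treated tumors, so nothing is read from their number. At an unadjusted p under 0.05 edgeR had 5 higher and 6 lower, beside 1690 and 1813 of all genes. DESeq2 called 2 higher and 2 lower, beside 438 and 349 of all genes. The median log2 fold change of the 38 was 0.05, and that of all tested genes was 0.02. The 2 most abundant neighbors were Nedd8, which encodes a ubiquitin-like protein, with a log2 fold change of 0.21 (edgeR adjusted p 0.512), and Khnyn with −0.17 (edgeR adjusted p 0.62).

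Both genes called higher are near the cluster granzymes and nearly silent in saline tumors. Gm8961, an unprocessed pseudogene inside the locus at chr14:56178004-56180711, had 2, 0, 0 and 2 counts in saline tumors and 17, 36, 22 and 33 in treated tumors. Its fitted log2 fold change was 4.93 (SE 0.78, edgeR adjusted p 0.0201), higher in 4 of 4 treated tumors, and depends on the prior count since saline counts are so few. The gene passed the filter on low counts only through the treated tumors, so a gene like it had to differ to be tested, and nothing is supported by its call. Its transcript was 56.0% to 61.0% identical to those of the cluster granzymes and shared no 100-base stretch with them. The call was lost without saline 3, saline 4, mAb-DXd/IMQ 2 or mAb-DXd/IMQ 4, with fitted values of 4.56 to 5.50 over all tumors left out in turn. Ctsg, which encodes the myeloid granule protease cathepsin G, lies 15.1 kb outside the locus.

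Ctsg had 8, 0, 8 and 3 counts in saline tumors and 47, 46, 56 and 64 in treated tumors, with no overlap. Its fitted log2 fold change was 3.79 (SE 0.68, edgeR adjusted p 0.029). Like Gm8961 it passed the filter on low counts only through the treated tumors, and nothing is supported by its call. The call was lost without saline 3, saline 4, mAb-DXd/IMQ 2, mAb-DXd/IMQ 3 or mAb-DXd/IMQ 4, where leaving out each tumor gave 3.42 to 4.22. Farther out on that side lie protease genes of the Mcpt and Cma names, named after their values were seen and none called by edgeR. Among them, Mcpt8 is on the list of basophil markers read below. Mcpt1 stood at 70.6 ± 46.8 CPM in saline and 11.9 ± 6.93 CPM in treated tumors (log2 fold change −2.57, edgeR adjusted p 0.0695) and Mcpt2 at 83.6 ± 48.3 and 12.8 ± 9.71 CPM (−2.71, edgeR adjusted p 0.0737). Log2 fold changes were −2.21 for Mcpt4, −2.68 for Cma1 and −1.54 for Cma2, and −0.02 for Mcpt-ps1, −0.26 for Mcpt9 and 0.93 for Mcpt8, the nearest to the locus. All 8 overlapped between groups.

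**Figure D4:**
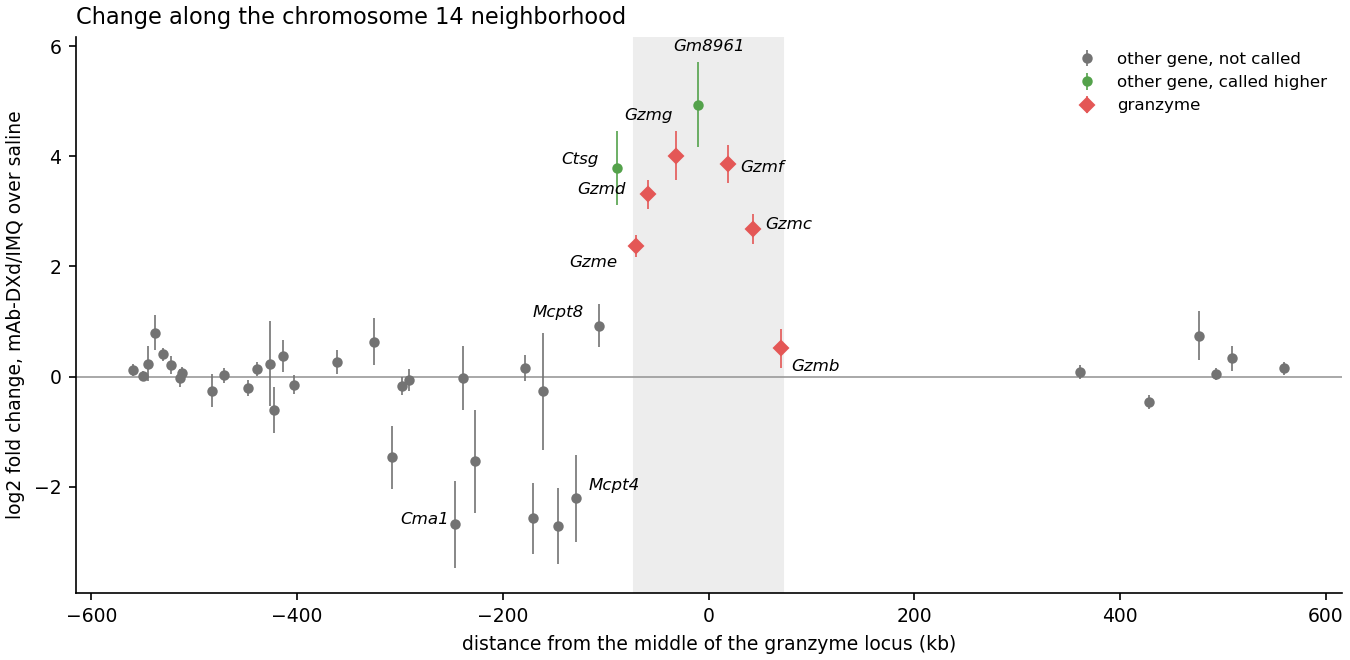
Log2 fold change of mAb-DXd/IMQ over saline for the tested genes around the granzyme locus of chromosome 14, by distance in kb from the middle of the locus, with granzymes, called genes and other genes marked. The 5 cluster granzymes lie between 2.37 and 4.01, near Gm8961 (4.93) and Ctsg (3.79), while Gzmb lies at 0.52 and the median of the 38 tested neighbors is 0.05.

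Around Gzma and Gzmk on chromosome 13, 12 of 35 neighbors were tested. Beside 101 (0.546%) of all 18511 tested genes, 1 of these neighbors was called higher. It was Gpx8, which encodes a glutathione peroxidase family member, at 46.3 ± 2.78 CPM in saline and 71.7 ± 7.69 CPM in treated tumors (log2 fold change 0.63, SE 0.11, edgeR adjusted p 0.0277, higher in 4 of 4). That call was kept only without saline 1 or mAb-DXd/IMQ 2, and was lost without any of the other 6 tumors, with values of 0.58 to 0.70, and it was also lost with a correction for gene length. At an unadjusted p under 0.05 edgeR had 2 higher and 0 lower, beside 1690 and 1813 of all 18511 genes. DESeq2 called 2 higher and 0 lower, beside 438 and 349 of all genes. The neighbors' median was 0.07, and the most abundant was Snx18 (−0.10, edgeR adjusted p 0.737).

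Around Gzmm on chromosome 10, edgeR called 0 of 41 tested neighbors, and DESeq2 called 0. At an unadjusted p under 0.05 edgeR had 4 higher and 0 lower, beside 1690 and 1813 of all 18511 genes. The median of the neighbors was 0.00. The most abundant were Bsg (0.33, edgeR adjusted p 0.201), which encodes basigin, and Gpx4 (0.04).

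Beyond the granzymes, lists of 102 genes were drawn up for the steps a granzyme depends on: release and entry, parallel killing routes, inhibitors, substrates, transcription factors and cytokine inputs. Of the 92 tested, edgeR called 0 higher and 1 lower, with 11 higher and 20 lower at an unadjusted p under 0.05 and 4 higher and 4 lower by DESeq2. Over all 18511 tested genes, 1690 were higher and 1813 lower at an unadjusted p under 0.05. Of the same genes edgeR called 101 higher and 96 lower, and DESeq2 called 438 higher and 349 lower. The median log2 fold change of the lists was −0.10, beside 0.02 for all genes. The p-values measure the spread between these tumors.

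Perforin, encoded by Prf1, opens the way for granzymes. Prf1 stood at 32.9, 12.8, 14.9 and 13.4 CPM in saline tumors and at 35.5, 34.1, 32.1 and 40.9 CPM in treated tumors. Saline 1 stood apart from the other controls and reached into the treated range. The log2 fold change was 0.95 (SE 0.27, edgeR adjusted p 0.104), which did not pass the test. Without saline 1 it was called higher at 1.37 (SE 0.14, edgeR adjusted p 0.00335, in a range of 0.00335 to 0.26 over all alternatives), and DESeq2 also called it higher. The granzymes Gzma, Gzmb, Gzmc and Gzmd were likewise highest in saline 1 among controls.

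Of the 17 genes for pore and granule release, edgeR called 0, with 2 higher and 4 lower at an unadjusted p under 0.05 and 1 higher and 0 lower by DESeq2, and the median was −0.24. Ctsc, which encodes the protease that activates granzyme precursors, was the most abundant with a log2 fold change of −0.29 (edgeR adjusted p 0.469), followed by the lysosomal tetraspanin gene Cd63 with 0.47 (edgeR adjusted p 0.107). Of 11 death ligands and effector cytokines edgeR called 0, with 2 higher and 2 lower at an unadjusted p under 0.05 and 0 by DESeq2, and the median was 0.01. The most abundant were Tnfsf10, the death ligand TRAIL (−0.72, edgeR adjusted p 0.351), and the chemokine gene Ccl5 (0.61, edgeR adjusted p 0.141).

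Of the 12 granzyme-binding serpins 6 were tested and edgeR called 0, with 1 higher and 0 lower at an unadjusted p under 0.05 and 0 by DESeq2. Serpinb9, the inhibitor of granzyme B, had a log2 fold change of −0.01 (edgeR adjusted p 0.992) and Serpinb6a −0.20 (edgeR adjusted p 0.474), with a list median of −0.10, and Serpinb9c and Serpinb9d had no counts. Of 20 granzyme substrates 19 were tested and edgeR called 0, with 3 higher and 1 lower at an unadjusted p under 0.05 and 1 higher and 0 lower by DESeq2, and the median was 0.05. The most abundant of the list, Hnrnpk, had a log2 fold change of −0.22 (edgeR adjusted p 0.451), and Trex1 had no counts.

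Among 20 transcription factors of cytotoxic cells, 1 fell and 16 of 20 had a negative log2 fold change, with a median of −0.36. At an unadjusted p under 0.05 edgeR had 2 higher and 10 lower, beside 1690 and 1813 of all 18511 genes. DESeq2 called 2 higher (Eomes and Tcf7) and 3 lower (Id2, Tox and Irf4). Id2, an inhibitor of E proteins needed by natural killer and effector T cells, stood at 98.2, 82.3, 77.6 and 104 CPM in saline tumors and at 54.6, 52.3, 43.9 and 57.3 CPM in treated tumors. All treated tumors were below all saline tumors, and Id2 fell by 0.80 on the log2 scale (SE 0.13, edgeR adjusted p 0.0219). The call was lost without saline 3, saline 4, mAb-DXd/IMQ 2 or mAb-DXd/IMQ 4, with values between −0.87 and −0.72. The most abundant of the list were Junb (−0.53, edgeR adjusted p 0.175) and Bhlhe40 (−0.19, edgeR adjusted p 0.525). Of 22 genes for cytokine inputs 19 were tested and edgeR called 0, with 1 higher and 3 lower at an unadjusted p under 0.05 and 0 higher and 1 lower by DESeq2. Their median was −0.03, and the most abundant were the receptor genes Tgfbr2 (−0.26, edgeR adjusted p 0.335) and Tgfbr1 (−0.02, edgeR adjusted p 0.969).

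**Figure D5:**
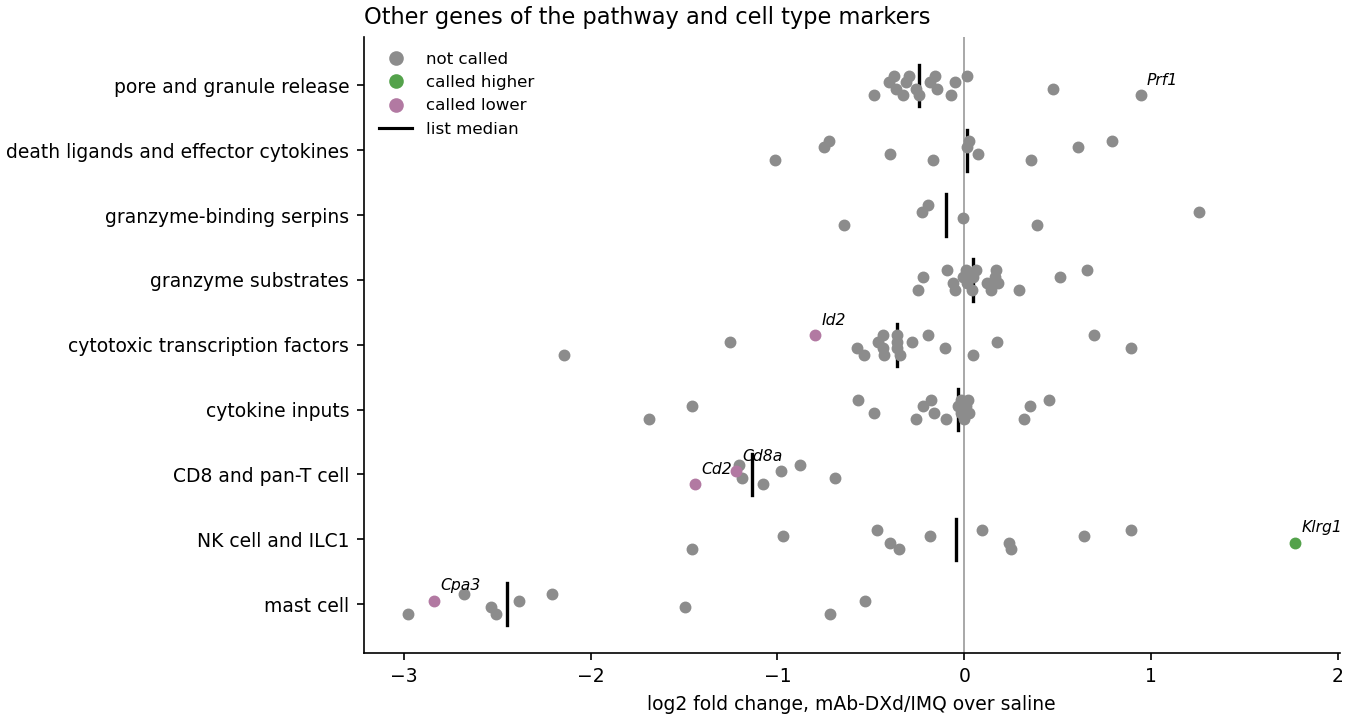
Log2 fold change of mAb-DXd/IMQ over saline for the tested genes of the 6 pathway lists and of the CD8 and pan-T cell, natural killer cell and mast cell markers, the marker lists drawn, with a point per gene, a bar at the list median and called genes marked. Pathway medians lie between −0.36 (transcription factors) and 0.05 (substrates), and the mast cell (−2.45) and CD8 and pan-T cell (−1.13) markers have the lowest medians drawn.

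Markers of cells known to carry granzymes were read beside these levels. Over all 18511 tested genes edgeR called 0.546% higher and 0.519% lower, and DESeq2 called 438 and 349 genes. At an unadjusted p under 0.05 edgeR had 1690 higher and 1813 lower. Summed over 8 CD8 and pan-T cell markers, of which Cd8a was the most abundant, the level was 67.5, 97.4, 94.8 and 84.9 CPM in saline tumors and 52.2, 45.7, 26.4 and 39.1 CPM in treated tumors, opposite in direction to the cluster granzymes. All 8 had a negative log2 fold change (median −1.13), with 0 higher and 8 lower at an unadjusted p under 0.05 in edgeR and 6 lower by DESeq2. Of the 8, edgeR called 2 lower: Cd8a (−1.22, SE 0.17, edgeR adjusted p 0.0201, lower in 4 of 4) and Cd2 (−1.44, SE 0.30, edgeR adjusted p 0.0458). The Cd8a call was lost without saline 3, saline 4 or mAb-DXd/IMQ 4 (−1.36 to −1.11 over all tumors left out in turn), and the Cd2 call without any 1 of the 8 tumors (−1.69 to −1.27). Of 5 CD4 T cell markers 4 were tested, all with a negative log2 fold change (median −1.26), with 0 higher and 3 lower at an unadjusted p under 0.05 in edgeR and 3 lower by DESeq2. Among them Cd4, the most abundant, was called lower (−1.91, SE 0.25, edgeR adjusted p 0.0201). That call was lost without saline 3, saline 4 or mAb-DXd/IMQ 4 (−2.09 to −1.77). Their summed level was 12.5, 18.2, 13.9 and 21.01 CPM in saline tumors and 5.07, 7.99, 6.55 and 8.57 CPM in treated tumors.

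Summed over 12 natural killer and innate lymphoid cell markers, led by Itga2, the level overlapped, at 204, 149, 188 and 173 CPM in saline tumors and 182, 171, 169 and 183 CPM in treated tumors. The list shares Eomes with the transcription factors and Xcl1 with the effector cytokines. Of the 12, 6 had a log2 fold change above 0 and 6 below (median −0.05). In edgeR 2 were higher and 3 lower at an unadjusted p under 0.05, and DESeq2 called 2 higher and 1 lower. EdgeR called 0 lower and 1 higher: Klrg1, which encodes a receptor of mature natural killer and effector T cells, at 0.792 CPM in saline and 2.72 CPM in treated tumors (1.77, SE 0.30, edgeR adjusted p 0.0277). The Klrg1 call was lost without saline 2, saline 3, saline 4, mAb-DXd/IMQ 3 or mAb-DXd/IMQ 4 (1.58 to 1.94). With no filter on low counts, or with the newer quasi-likelihood method, edgeR also called 1 gene of the list lower. Gamma-delta T cell markers, led by Tcrg-C2, came to 11.7 ± 4.09 CPM in saline and 8.99 ± 0.652 CPM in treated tumors, with 0 of 5 tested called by edgeR, 0 higher and 1 lower at an unadjusted p under 0.05 and 0 by DESeq2. The part of these cell types in the granzyme levels was not tested.

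Mast cells carry granzyme B and chymases, and their 10 markers, led by Tpsab1, came to 320, 43.5, 225 and 304 CPM in saline tumors and 30.6, 69.9, 25.9 and 58.9 CPM in treated tumors. Saline 2 lay inside the treated range, and Gzmb was also at its lowest in saline 2. Among controls both were highest in saline 1, while saline 4 stood at 304 CPM for the markers and 22.6 CPM for Gzmb. In treated tumors the markers were highest in mAb-DXd/IMQ 2 and Gzmb in mAb-DXd/IMQ 4. All 10 markers had a negative log2 fold change, with 0 higher and 10 lower at an unadjusted p under 0.05 in edgeR. DESeq2 called 5 lower and edgeR called 1 lower. Without saline 2 edgeR called 6 of the 10 lower, with no filter on low counts it called 5, and without any 1 of the other 7 tumors it called 0. The 1 gene called with all tumors was Cpa3, which encodes mast cell carboxypeptidase (−2.84, SE 0.58, edgeR adjusted p 0.0433). Its groups overlapped, and its call was kept only without saline 2 and lost without any of the other 7 tumors (−3.22 to −2.49) and with a correction for gene length. Basophil markers, led by Il6ra and sharing Ms4a2 with the mast cell list, came to 90.3, 96.2, 77.96 and 92.5 CPM in saline tumors. In treated tumors they came to 51.0, 69.3, 60.2 and 68.7 CPM. Of 5 tested, 2 had a log2 fold change above 0 and 3 below, and edgeR called 0. At an unadjusted p under 0.05 edgeR had 1 higher and 3 lower, and DESeq2 called 2 lower. The 1 higher was Mcpt8, at 3.87 ± 1.41 CPM in saline and 7.36 ± 4.33 CPM in treated tumors, with overlap (log2 fold change 0.93). The part of mast cells and basophils in the granzyme levels was not tested.

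Neutrophil markers, led by S100a9, came to 226, 86.6, 93.1 and 125 CPM in saline tumors and 34.8, 50.7, 53.4 and 69.2 CPM in treated tumors. Of 7 tested, 6 had a negative log2 fold change (median −1.09), with 1 higher and 4 lower at an unadjusted p under 0.05 in edgeR and 1 higher and 3 lower by DESeq2. EdgeR called Ctsg higher, which passed the filter only through the treated tumors, and Csf3r, the receptor for granulocyte colony-stimulating factor, lower (−0.80, SE 0.16, edgeR adjusted p 0.0402). The Csf3r call was kept only without mAb-DXd/IMQ 1 and lost without any of the other 7 tumors (−0.87 to −0.68) and with a correction for gene length. The Ctsg call was lost without saline 3, saline 4, mAb-DXd/IMQ 2, mAb-DXd/IMQ 3 or mAb-DXd/IMQ 4 (3.42 to 4.22). Plasmacytoid dendritic cell markers, led by Bst2, came to 738 ± 176 CPM in saline and 984 ± 110 CPM in treated tumors, although 6 of 7 had a negative log2 fold change (median −0.37), with 0 of 7 called by edgeR, 1 higher and 3 lower at an unadjusted p under 0.05 and 0 by DESeq2. Macrophage markers, led by Lyz2, came to 3477 ± 2130 and 3006 ± 541 CPM, and all 9 had a negative log2 fold change (median −0.24). Of these edgeR called 0, with 1 lower at an unadjusted p under 0.05 and 1 lower by DESeq2. There was 1 called lower in edgeR without saline 1, with no filter on low counts, or with the newer quasi-likelihood method. B and plasma cell markers, led by Ighm, came to 24.6 ± 18.6 and 12.8 ± 3.86 CPM, and all 4 tested had a negative log2 fold change (median −0.89). Of these edgeR called 0, with 2 lower at an unadjusted p under 0.05 and 2 lower by DESeq2. There was 1 called lower in edgeR without saline 1 or with no filter on low counts.

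Mammary tumor epithelium markers, led by Krt18, were abundant in every tumor at 2686 ± 411 CPM in saline and 3203 ± 840 CPM in treated tumors. Of the receptors that triple-negative tumors lack as proteins, Esr1 stood at 19.1 and 15.7 CPM, Pgr at 0.37 and 0.58 CPM and Erbb2 at 102 and 101 CPM. Epidermis markers, led by Krt5, came to 59.2, 11.2, 21.4 and 13.8 CPM in saline tumors and 12.1, 218, 9.39 and 15.99 CPM in treated tumors, so mAb-DXd/IMQ 2 stood apart. Skeletal muscle markers, led by Acta1, came to 438, 41.7, 343 and 199 CPM in saline tumors and 335, 77.7, 177 and 251 CPM in treated tumors, with saline 2 the lowest. For these 4 lists edgeR called 0 genes and DESeq2 0, and at an unadjusted p under 0.05 only 1 receptor gene was lower. Their part in the granzyme levels was not tested.

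Fold changes in these tumors also followed gene length. Across the 18511 tested genes, which are not independent replicates, Spearman's rho between log2 fold change and gene length was −0.212, and −0.0279 after a length correction. The members are short, from 894 bases (Gzmc) to 1472 (Gzmm). With the length correction, log2 fold changes were 2.59 for Gzmc, 3.20 for Gzmd, 2.28 for Gzme, 3.75 for Gzmf and 3.91 for Gzmg, beside 0.44 for Gzmb.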

How the data were processed

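RNA from 8 whole tumors, 4 saline and 4 mAb-DXd/IMQ, was sequenced from poly-A libraries. The authors deposited a table of raw read counts for 54532 genes, with gene names, positions and lengths. Their processing notes name HISAT2, HISAT and TopHat2 without versions and the build mm39, while 53585 of 54495 shared gene IDs have the start and end of GENCODE vM21 on GRCm38. Strandedness is not stated. The members and gene lists were chosen with earlier results of these data known.

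Groups follow the sample titles. Counts were filtered with filterByExpr (minimum count 10, minimum total 15), which left 18511 genes, scaled by TMM (factors 0.939 to 1.07) and tested with the edgeR 4.0.16 quasi-likelihood F-test (limma 3.58.1, R 4.3.3), with Benjamini-Hochberg adjustment over all tested genes. A gene was called at an adjusted p under 0.05 and a log2 fold change beyond 0.58. Standard errors are approximate. The code was tested on simulated data. Library totals of 34591912 to 69582375 counts set the precision.

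Covariation used log2 CPM with a prior count of 2. By rule, named genes are all members, Prf1, and every called gene of the lists and of the windows of 500 kb. To these were added the 2 most abundant genes of each pathway list (1 for the substrates) and window. The most abundant gene of each marker list and the 6 genes most alike complete the rule. Named outside it were Gm4022, Esm1, the Mcpt and Cma genes, Esr1, Pgr, Ms4a2, Eomes, Tcf7, Tox, Irf4, Xcl1 and the list genes with no counts. Sequences are from RefSeq on GRCm38.p6 and transcripts from GENCODE vM21, aligned with Biopython 1.88. Tables and figures used Python 3.11.15, pandas 2.3.3, numpy 2.4.6 and matplotlib 3.10.9.

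Alternatives were DESeq2 size factors, no filter, the DESeq2 1.42.0 Wald test, the newer quasi-likelihood method, the replicate number as a block, a spline on gene length with 5 degrees of freedom, block and spline together, a prior count of 0.5, and leaving out each tumor. Every deposited sample was used.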

Additional observations from a re-analysis of the deposited data

Results flagged for a closer look

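In 24 groups of 4 tumors, the gap between an extreme tumor and its nearest neighbor was compared with the whole range of the group. It was above Dixon's limit in 2 groups, where chance passes about 1 in 20 groups, or 1.2 of 24. For Gzmb in mAb-DXd/IMQ tumors, mAb-DXd/IMQ 4 was the highest at 66.3 CPM and its gap took 0.832 of the range. For Prf1 in saline tumors, saline 1 was the highest at 32.9 CPM and its gap took 0.898 of the range. The reason for either was not tested.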

How the results depend on the processing

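The log2 fold change of every tested member kept its sign in all 15 alternatives, which is no sign of stability since the family was selected on this contrast. The values ran from 2.45 to 2.88 for Gzmc, 3.08 to 3.49 for Gzmd, 2.27 to 2.54 for Gzme, 3.63 to 4.08 for Gzmf and 3.70 to 4.27 for Gzmg. The counts over all genes depended on the processing. Beside 101 genes called higher, 96 lower and 1 pathway gene, leaving out the low-count filter gave 167, 191 and 3. The DESeq2 Wald test gave 438, 349 and 8, and the newer quasi-likelihood method gave 153, 138 and 2. The length correction gave 73, 44 and 1.

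With the replicate block, 10 genes were called higher, 4 lower and 0 of the pathway lists by edgeR, where 11 pathway genes were higher and 20 lower at an unadjusted p under 0.05 without the block and DESeq2 called 8. With replicate block and length correction together, the counts were 10, 2 and 0. Across genes, which are not replicates, the deviations of same-number tumors from their group means had correlations of −0.17, −0.055, 0.079 and −0.067, and those of other pairs ran from −0.10 to 0.18, so the labels' numbers were not taken as pairs. The block leaves fewer degrees of freedom. Calls are given only for genes outside the family, since its members were given no test. All 10 called genes that the report names lost their call with the block. Gpx8, Cpa3 and Csf3r also lost it with the length correction.

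Leaving out each tumor gave 9 to 90 genes higher, 1 to 118 lower and 0 to 3 of the pathway lists. Without saline 3, saline 4 or mAb-DXd/IMQ 4, between 9 and 10 of the 101 genes higher and between 1 and 2 of the 96 lower were called again. The cause was not tested. The median covariation of the 5 cluster granzymes, 0.61, was 0.61 with a prior count of 0.5 and 0.41 to 0.66 with a tumor left out.

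Limits: there are 4 tumors a group and 1 cell line, and the groups were not sorted by cell type. Gzmn held 6 counts over the saline tumors, so its level there is known only within counting error.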
